A study of Oryza sativa with 2 samples.

Results

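The auxin response and auxin transport genes of the rice collar were described on the pair of arrays of this series. Members were taken by name. A probe set that is not a control and is annotated to a single gene was included when a symbol or synonym of that gene reads IAA, SAUR, ARF, PIN or AUX followed by a number, with or without the prefix Os. The names of GH3 conjugating enzymes were not used. This gave 61 probe sets of 49 genes, out of 57194 probe sets that are not controls and 17905 genes with a probe set of their own. The 49 genes are 26 of the Aux/IAA family, 17 auxin response factors (ARF), 1 SAUR gene and 5 PIN genes, while no gene carried an AUX name. All 49 have a locus number as their symbol and entered through a synonym. Another 12 genes of the reference annotation match the names but have no probe set annotated to them alone. They are 2 Aux/IAA, 6 ARF and 4 PIN genes, and they were not analysed here.

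Developing collars, where the leaf blade meets its sheath, were harvested at the heading stage from antiOsLIC plants and from wild type plants grown in the same field. The antiOsLIC plants express an antisense copy of the whole OsLIC cDNA from the maize ubiquitin1 promoter, and the sample labels name line 2. OsLIC is a CCCH-type zinc finger gene that the study examined for its part in leaf and tiller angle. Each condition was measured on 1 GeneChip Rice Genome Array with RNA of 30 pooled collars, 1 from each plant, and neither plant age in days nor cultivar is stated in the labels. The pool averages over plants but leaves no spread between samples, so that no significance test was made and no difference below has a replicate check.

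Aux/IAA proteins are short-lived repressors. They bind the auxin response factors, which sit on the promoters of auxin-responsive genes, and keep these genes off. Auxin joins an Aux/IAA protein to an F-box receptor of the TIR1/AFB family, the repressor is destroyed, and the response factor is released. Many Aux/IAA and SAUR genes are themselves early targets of auxin, so that their transcripts are commonly used as a readout of the auxin response, while PIN proteins carry auxin out of the cell or, for the short PIN5 type, across internal membranes. In rice, auxin is known to act together with brassinosteroids when the lamina joint bends.

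Values are signals computed by the Affymetrix software GCOS, with each array scaled to an overall intensity of 500. A signal under 20 was set to 20 before a ratio was taken, and log2 ratios are antiOsLIC over wild type. The gene stands for its brightest probe set, chosen by the mean log2 signal of both arrays. It was counted when this probe set reached a signal of 100 on at least 1 array, which held for 39 of the 49 genes and for 14736 genes on the whole array. OsLIC itself had a signal of 2069 on the antiOsLIC array and of 219.8 on the wild type array (log2 ratio 3.23). The strand that this probe set reads was not checked, so directions hold between the arrays as they are labelled. The collar markers were present on both arrays. OsLG1, needed for the ligule and the lamina joint, had signals of 641 in antiOsLIC and 494 in the wild type, and BU1, a brassinosteroid-induced factor of lamina bending, had 450.3 in antiOsLIC and 463 in the wild type.

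Few auxin genes differed by a factor of 2, but most were lower in antiOsLIC collars. Of the 39 genes counted, 1 was at least 2-fold lower and none was at least 2-fold higher, where 2.84% of all genes were lower and 3.71% were higher by as much. The share of members past 2-fold (2.56%, lower) was thus near that of all genes. The log2 ratio was below 0 for 29 of the 39 genes (74.4%), against 51.0% of all genes, and the median was -0.24 for the auxin genes and -0.01 for all genes. ARF10, IAA8 and PIN9 passed the minimum through 1 array only, and of the other 36 genes, which reached it on both arrays, 27 were below 0 (75%, against 51.2% of all such genes). Counted as probe sets, 45 of 61 reached the minimum, and 2 of these were at least 2-fold lower and none was higher, where 4.64% of all probe sets were lower and 5.28% were higher. A lower limit of 1.5-fold, chosen after the values were seen, was passed downward by 8 genes (20.5%; all genes 8.54%) and upward by 1 gene (2.56%; all genes 9.26%). The 8 were IAA2, IAA13, IAA19, IAA24, IAA31, ARF10, ARF14 and PIN5A, and the 1 was PIN9. In a bulk sample, fewer cells of a type and less RNA per cell cannot be told apart.

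**Figure D1:**
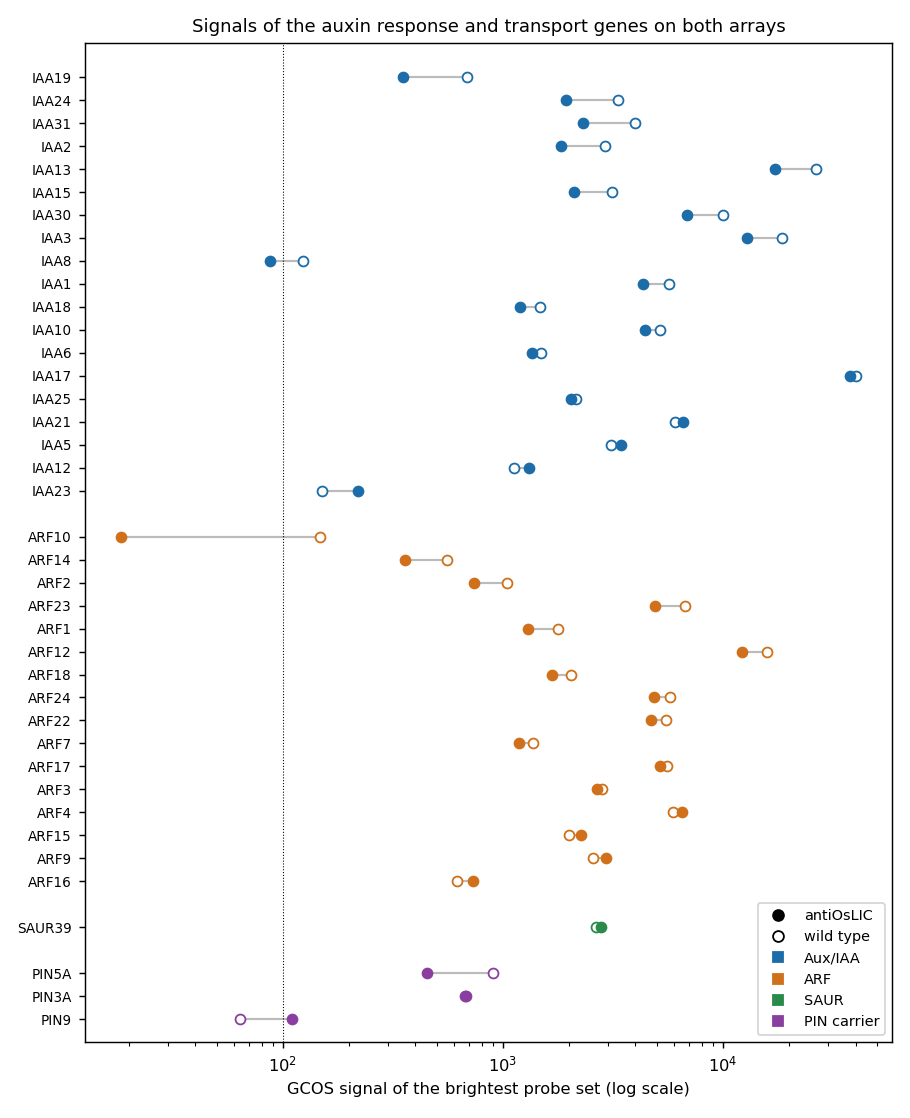
Signal of the brightest probe set of the 39 auxin genes that reached the minimum, antiOsLIC (filled) and wild type (open), on a logarithmic axis, ordered within each class by the log2 ratio. The dotted line marks a signal of 100. For 15 of 19 Aux/IAA genes and 12 of 16 ARF genes the filled point lies left of the open one.

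The Aux/IAA repressors were shifted downward as a class without any one of them reaching a 2-fold difference. Of 26 genes, 19 were counted, 15 of these had a log2 ratio below 0 and 4 above it, and the median was -0.40. Values ran from -0.96 to 0.55. The lower quartile of all genes lay at -0.24, and 11 of the 19 Aux/IAA genes were under it.

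IAA19 (LOC4339588) had the lowest ratio of the class. Its signal was 350.3 in antiOsLIC and 684 in the wild type, 1.95-fold lower (log2 ratio -0.96), just outside the 2-fold limit. IAA24 (LOC4342573) had 1931 in antiOsLIC and 3330.0 in the wild type, 1.72-fold lower. IAA31 (LOC4352722), with 2304 in antiOsLIC and 3969 in the wild type, was lower by the same factor to 3 digits. The log2 ratios of these genes, -0.79 for IAA24 and -0.78 for IAA31, were therefore almost the same although they are separate loci. IAA31 lies directly beside IAA30 (LOC4352721), with no annotated gene between them, and this was the only pair of members with fewer than 5 genes between them. IAA30 had 6891 in antiOsLIC and 9982 in the wild type (log2 ratio -0.53), so both neighbours were lower.

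IAA13 (LOC4334069), whose stabilised form is known to reduce lateral roots in rice, had signals of 17258 in antiOsLIC and 26438 in the wild type, 1.53-fold lower (log2 ratio -0.62). IAA3 (LOC4325890) had 12787 in antiOsLIC and 18485 in the wild type, 1.45-fold lower. IAA2 (LOC4326775) had 1828 in antiOsLIC and 2893 in the wild type, 1.58-fold lower. The signals of IAA2, IAA3 and IAA13 were far above the floor on both arrays. IAA15 (LOC4337971), 1.499-fold lower with 2091 in antiOsLIC and 3134 in the wild type, lay just outside the 1.5-fold limit (log2 ratio -0.58).

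Not all repressor genes were lower by as much. IAA17 (LOC4338160) had 37740.1 in antiOsLIC and 40079.5 in the wild type, a log2 ratio of -0.09. Its only probe set is of the less specific _s_at type. IAA1 (LOC4323871) had 4318 in antiOsLIC and 5680.5 in the wild type (log2 ratio -0.40). A rice gene named IAA1 links auxin and brassinosteroid responses when it is overexpressed. The annotation gives this name also to the gene shown here as IAA13 (LOC4334069), and which locus was overexpressed was not checked. The other counted genes with a ratio below 0 were IAA8 (-0.49), IAA18 (-0.31), IAA10 (-0.22), IAA6 (-0.13) and IAA25 (-0.08). The 4 genes above 0 were IAA23 (0.55), IAA12 (0.23), IAA5 (0.14) and IAA21 (0.11), of which IAA23, known for its part in the root quiescent centre, had its higher signal of 219 in antiOsLIC against 150 in the wild type on a probe set of the less specific _x_at type.

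Bright probe sets vary less between the arrays than dim ones, so each member was also set beside genes of similar mean signal, in 4 ranges chosen after the values were seen. Among 1332 genes with a geometric mean signal of 5000 or more, the 5th percentile of the log2 ratio was -0.50, and IAA3, IAA13 and IAA30 lay under it. Among 2724 genes between 2000 and 5000 it was -0.56, and IAA2, IAA15, IAA24 and IAA31 lay under it. Over all ranges, 9 of the 39 auxin genes were under the 5th percentile of their range, 7 of them Aux/IAA genes, beside 5.01% of all genes by construction. None was above the 95th percentile. The other 2 were PIN5A, in the range from 500 to 2000 (5th percentile -0.64), and ARF10, in the range under 500 (-1.12). The median of all genes was between -0.02 and 0.00 in each range.

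**Figure D2:**
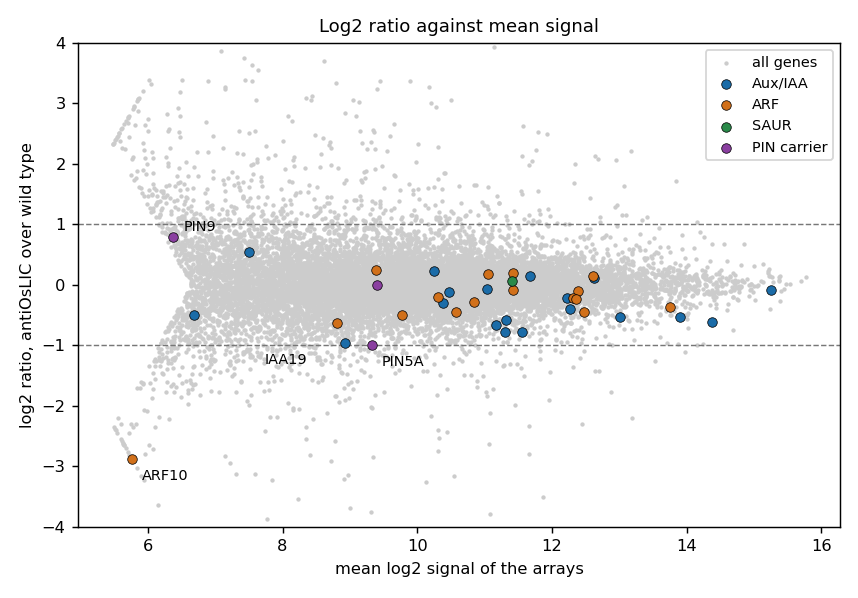
Log2 ratio, antiOsLIC over wild type, against the mean log2 signal of both arrays, with signals under 20 set to 20. Grey points are the 14736 genes counted, of which 23 lie outside the plotted range, coloured points are the auxin genes, and dashed lines mark a 2-fold difference. The coloured points lie mostly under 0 over the whole range of signals, and ARF10 is the single one past a dashed line.

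The auxin response factors had a smaller shift. Of 17 genes, 16 were counted, 12 of these were below 0 and 4 above it, and the median was -0.23. Apart from ARF10, the class ran from -0.63 to 0.24.

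ARF10 (LOC4336419) was the one auxin gene past 2-fold. Its signal was 18.4 in antiOsLIC and 147 in the wild type. As the antiOsLIC signal is under the floor, the ratio of the deposited signals is at least 7.35-fold lower (log2 ratio -2.88), and with a pseudocount of 50 the log2 ratio was -1.53. The probe set passed the minimum through the wild type array alone, so that a large ratio was bound to follow once the other signal was low. It is the only probe set of this gene.

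ARF10 belongs by its name to the response factors whose transcripts miR160 cleaves, and ARF18 (LOC4341882) and ARF22 (LOC4348918) were placed with it by name. No sequence was checked for a miR160 site, so the group may lack members. Whether ARF13, too dim to be counted (39.9 in antiOsLIC, 16.5 in the wild type), belongs to it was not checked. ARF18 had 1664 in antiOsLIC and 2029.7 in the wild type (log2 ratio -0.29). ARF22 had 4728 in antiOsLIC and 5514 in the wild type (log2 ratio -0.22). All 3 were below 0, but ARF18 and ARF22 were within the middle range of all genes or close to it. The ETTIN-type factors, whose transcripts are cut by small RNAs of the TAS3 kind, were also placed by name and differed among themselves. ARF14 (LOC4339313) had 360.1 in antiOsLIC and 559 in the wild type, 1.55-fold lower, while ARF2 (log2 ratio -0.50), ARF3 (-0.08) and ARF15 (0.17) had smaller differences. ARF2 (LOC4325895) had signals of 736 in antiOsLIC and 1044 in the wild type by its brightest probe set.

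The activating type of response factor is known for a glutamine-rich middle region. ARF12, ARF16 and ARF17 were placed in it by name, with no sequence checked, and ran from -0.37 to 0.24. ARF12 (LOC4337363), known for root elongation in rice, had 12174 in antiOsLIC and 15783 in the wild type (log2 ratio -0.37). ARF17 (LOC4341841) had 5167 in antiOsLIC and 5567 in the wild type (log2 ratio -0.11), and ARF16 had a ratio of 0.24. The remaining counted response factors were placed in none of these groups. ARF23 (LOC4350610), which with ARF24 acts on the actin cytoskeleton through a formin gene in rice, had 4897 in antiOsLIC and 6705 in the wild type (log2 ratio -0.45), and ARF24 had a ratio of -0.24. ARF4 (LOC4326957), one of the 4 above 0, had 6533 in antiOsLIC and 5940.2 in the wild type (log2 ratio 0.14). ARF1 (-0.44), ARF7 (-0.20) and ARF9 (0.19) complete the 16.

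**Figure D3:**
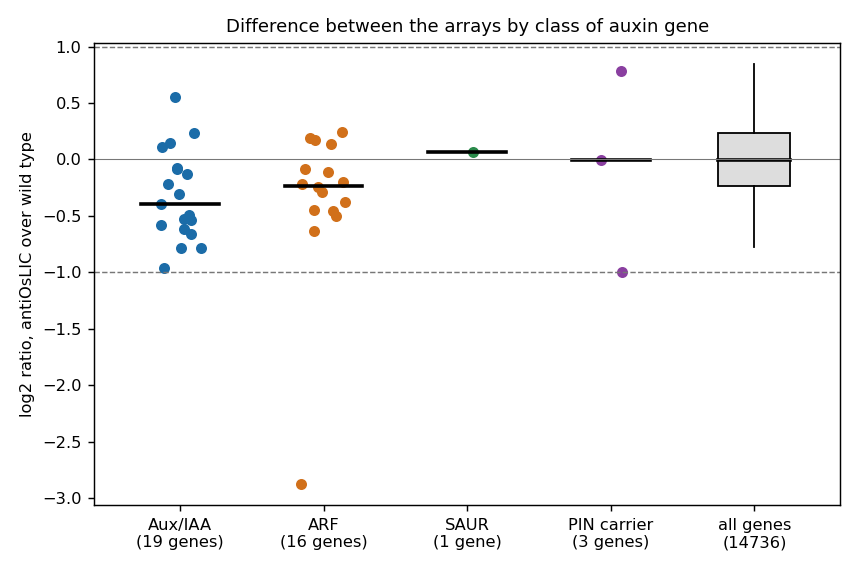
Log2 ratio, antiOsLIC over wild type, of each counted auxin gene by class, 1 point per gene, with the class median as a black bar. The grey box gives the interquartile range of all 14736 genes with their median, and its lines run between the 5th (-0.78) and 95th (0.85) percentile, and dashed lines mark a 2-fold difference. The medians are -0.40 for Aux/IAA and -0.23 for ARF genes, and the classes overlap.

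The single SAUR gene did not share the shift. SAUR genes are small auxin-induced genes, and SAUR39 (LOC9271092) is known in rice as a negative regulator of auxin synthesis and transport. It had 2780.2 in antiOsLIC and 2655 in the wild type, a log2 ratio of 0.07. With 1 gene on the array under such a name, nothing can be said of the SAUR family.

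The PIN carriers differed from each other in direction. PIN5A (LOC4324368), of the short PIN type known from internal membranes, had 453 in antiOsLIC and 904 in the wild type, 1.997-fold lower (log2 ratio -0.998), which is the value closest to the 2-fold limit of all members. PIN9 (LOC4327533), of a monocot-specific branch, had 109 in antiOsLIC and 63.5 in the wild type, 1.72-fold higher (log2 ratio 0.78), on a dim probe set that passed the minimum through the antiOsLIC array alone. With a pseudocount of 50 its log2 ratio was 0.49, under the 1.5-fold limit. PIN3A (LOC4326565, also PIN10a in the annotation) had 674.3 in antiOsLIC and 675.9 in the wild type on an _x_at probe set, and its log2 ratio rounds to 0.00. The 3 carriers thus ranged from a value near the lower 2-fold limit to the highest of the counted auxin genes, and their median has little meaning. PIN2, which in Arabidopsis acts in root gravitropism, had signals of 6.67 in antiOsLIC and 6.11 in the wild type, and PIN5C had 5.35 in antiOsLIC and 18.6 in the wild type, all under the floor, so that no ratio is given for either.

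The 10 genes that were not counted were dim on both arrays, with no signal above 80.6. They were IAA4, IAA7, IAA9, IAA14, IAA16, IAA20, IAA26, ARF13, PIN2 and PIN5C. IAA26 had 21.3 in antiOsLIC and 71.2 in the wild type, and IAA16 had 48.1 in antiOsLIC and 9.70 in the wild type. Such signals are too dim for a direction. Over all 49 genes, with no minimum, 32 had a log2 ratio below 0, 14 above 0 and 3 at 0 because both signals were under the floor, and the median was -0.22. The share of all genes below 0 with no minimum was not computed. As these counts take in the 10 dim genes, nothing is read from them about a shift.

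For 10 of the 49 genes further probe sets gave a repeat measurement of the same gene on the same arrays. Probe sets on an array read the same hybridised RNA, so neither the hybridisation nor the plants were repeated. Where 2 probe sets of a gene reached the minimum, which held for 5 auxin genes, their log2 ratios lay between 0.01 and 0.73 apart. Over the 2166 genes of the array with this property, the median distance of the brightest and the second was 0.23. Differences of single auxin genes were thus often of the size by which probe sets of a gene differ.

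ARF4 agreed best, with 0.14 and 0.15, and ARF23 had -0.45 and -0.57. ARF2 had -0.50 by its brightest probe set and -0.02 by the other. PIN3A had 0.00 and 0.35, and IAA23 had 0.55 by the _x_at probe set and -0.18 by the second, so that its direction is not settled. For 3 genes the probe sets were more than 1 apart on the log2 scale, in each case through dim signals. IAA4 (LOC4327919, which the annotation also calls IAA20) is the plainest example. Its brightest probe set had 59.2 in antiOsLIC and 70.2 in the wild type, a log2 ratio of -0.25, and did not reach the minimum. A less specific probe set had 26.9 in antiOsLIC and 128 in the wild type, 4.77-fold lower, and the last had 8.36 in antiOsLIC and 8.79 in the wild type. The large difference therefore belongs to 1 of 3 probe sets and is the second of the 2 probe sets counted as 2-fold lower. IAA1 had a second probe set with 79.0 in antiOsLIC and 13.6 in the wild type, against the direction of its bright one, and IAA8 had one with 9.16 in antiOsLIC and 59.9 in the wild type. IAA3 had a second probe set with 7.91 in antiOsLIC and 44.6 in the wild type, in the direction of its bright one, and that of IAA31 was under the floor on both arrays.

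**Figure D4:**
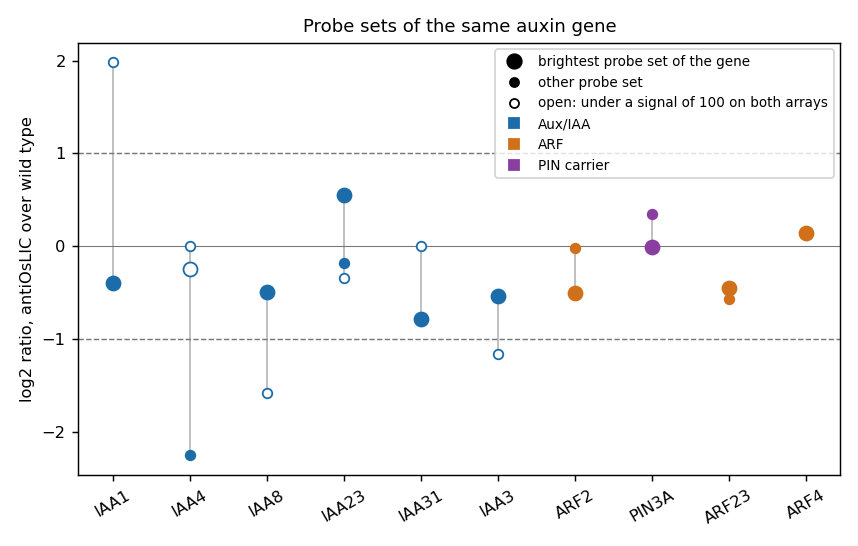
Log2 ratio, antiOsLIC over wild type, of every probe set of the 10 auxin genes with more than 1. Large points are the brightest probe set of a gene and open points did not reach a signal of 100 on either array. Probe sets of IAA1, IAA4 and IAA8 are more than 1 apart, each time with an open point among them, while those of ARF4 fall on each other.

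Other steps of the auxin pathway were covered by a list of symbols. It held 12 genes, 9 of them counted, of which 1 was higher by a factor of 2 or more and 0 were lower by that factor, with a median of -0.08. Beside the shares of all genes, 3.71% higher and 2.84% lower, counts over 9 genes say little about the list. No gene with a receptor name (TIR1 or AFB) was found. In synthesis, FIB, a tryptophan aminotransferase of auxin synthesis, had 316 in antiOsLIC and 279 in the wild type (log2 ratio 0.18), NIT4, named as a nitrilase, had a ratio of -0.04, and OsYUCCA1, a flavin monooxygenase that makes auxin, was dim, with 39.5 in antiOsLIC and 3.10 in the wild type. In transport, mdr17, named as an ABC transporter of the multidrug resistance kind, had 3749 in antiOsLIC and 1794 in the wild type, 2.09-fold higher (log2 ratio 1.06), and whether it carries auxin is not given in the annotation. LA1, the LAZY1 gene that controls tiller angle through shoot gravitropism and auxin transport in rice, had 4060 in antiOsLIC and 6805 in the wild type, 1.68-fold lower (log2 ratio -0.75). OsPID, named for the PINOID kinase that directs PIN proteins in Arabidopsis, had 320 in antiOsLIC and 502 in the wild type, 1.57-fold lower, and PID2 had a ratio of -0.09. The TOPLESS-related corepressors, through which Aux/IAA proteins keep genes off, were near 0, with ratios of -0.16 for OsTPR2 and 0.05 for TPR3. Some further entries were taken in by their symbols only. OsCRL4 (-0.08) is annotated here as the receptor-like kinase gene CHARK, LAX1 (38.3 in antiOsLIC, 81.9 in the wild type) as a bHLH factor and ASP1 (26.9 in antiOsLIC, 20.8 in the wild type) as an aspartic protease.

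Markers of other tissues that a dissected collar could hold were measured alongside. Of 13 genes taken in as floral organ markers, 4 reached the minimum, and 2, MADS6 and MADS13, were under the floor on both arrays. Of the 4, OsMADS2 alone was at least 2-fold lower (30.5 in antiOsLIC, 155 in the wild type). Over all genes, 2.84% were lower by as much. OsMADS2 and MADS17 passed the minimum through the wild type array alone. MADS17 and OsMADS18 had log2 ratios of -0.69 each, and MADS16 was higher, with 1179 in antiOsLIC and 1001 in the wild type. The summed signal of the 13 genes was 7571 in antiOsLIC and 11328 in the wild type, and without OsMADS18 it was 1515 in antiOsLIC and 1555 in the wild type. OsMADS18 had been placed in the list by an old synonym. Of 4 shoot meristem and stem genes 2 reached the minimum, with a summed signal of 467 in antiOsLIC and 493 in the wild type. The 3 genes of leaf blade photosynthesis, 2 of them past the minimum, summed to 38572 in antiOsLIC and 40585 in the wild type. By their brightest probe sets these 2 went in opposite directions. CAB2R had 12844 in antiOsLIC and 25685 in the wild type, and OsrbcS had a log2 ratio of 0.79 on an _x_at probe set. The other probe set of CAB2R, of the _s_at type, was also lower, with 5531 in antiOsLIC and 12945 in the wild type. Other probe sets of OsrbcS past the minimum had 0.60 and -0.39, so that its direction is not settled. The single root gene, OsPIP2;5, had 929 in antiOsLIC and 354 in the wild type. The part of these tissues in the lower signals of Aux/IAA and ARF genes was not tested.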

How the data were processed

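The authors hybridised 1 GeneChip Rice Genome Array per condition and deposited 1 intensity per probe set, a linear signal from GCOS (version not given in the sources used here) with each array scaled to an intensity of 500, which the 2% trimmed mean of 500.1 on both arrays bears out. Detection calls were not used. No further normalization was applied. Genes were assigned by the platform annotation, which gives 1 gene for 22436 probe sets and several for 95, and synonyms came from RefSeq (assembly ASM3414082v1). Of the probe sets with several genes, 1 matched the names and was left out. Where genes shared a synonym, 1 number was given to each so that no name is used for different members.

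Members and lists were chosen with earlier results of these data known. Genes named by rule were those past 2-fold, the 4 largest ratios and 4 highest mean signals of a class, genes whose probe sets were more than 1 apart on the log2 scale, and list genes past 2-fold. Others, the small RNA groups of ARF genes among them, were named after their values were seen. Alternatives were median centring, quantile normalization, loess (fraction 0.4), a pseudocount of 50, other signal minimums, other ways to join probe sets, and other fold limits. Python 3.11.15, pandas 2.3.3 and statsmodels 0.14.6 were used, and the calculation of the ratios was run on simulated probe sets. The differences set there were larger than 2-fold and the noise was low. That run therefore says nothing of how reliable the ratios given here are. With 1 array per condition, the number of arrays limits the precision.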

Additional observations from a re-analysis of the deposited data

How the results depend on the processing

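No paired analysis was possible because each condition has 1 array, and for the same reason no replicate could be left out. A log2 ratio or median counted as moved when it shifted by 0.23 or more, the median distance between probe sets of a gene. For a count of genes the limit was a change by more than a factor of 1.5, or to or from 0. The count of lower auxin genes, 1 as reported, was 2 with no signal minimum, with a minimum of 50, with the mean over a gene's probe sets, with probe sets in place of genes and with the brightest probe set chosen among those past the minimum (added after the data were seen). It was 0 with a minimum of 200 or 500, or of 100 on both arrays or on their geometric mean, since ARF10 was then not counted, and 8 at the 1.5-fold limit, also added later. The count of higher genes, 0 as reported, was 1 with no minimum and 1 at the 1.5-fold limit. In the other pathway list 1 gene was lower with no minimum or a minimum of 50. The share of all genes past the limit was taken only for the main setting, for probe sets and for the 1.5-fold limit. The counts under the other settings thus have no such share to be set beside. The median of the PIN genes was -0.50 with minimums of 200 and 500 and with 100 on both arrays or on the geometric mean, each over 2 genes, and 0.35 without _x_at and _s_at probe sets, where the other probe set of PIN3A took the place of the brightest. The medians of Aux/IAA (-0.44 to -0.28) and ARF genes (-0.24 to -0.22) were below 0 under all 14 alternatives. With median centring, quantile normalization and loess, 15 of 19 and 12 of 16 genes were below 0. Median centring moved every ratio by only 0.01, and a pseudocount cannot change a sign, so these counts had little room to change under either. The alternatives by symbol alone and by protein could not be run, since every member has a locus number as its symbol and no protein table was used here.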
